A study of Solanum lycopersicum with 12 samples.

Results

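In root sections of tomato, 200 genes were picked because their RNA was high in sections with a lateral root at its earliest scored stage and low in sections with no lateral root or with a late primordium. The choice used 8 of the 12 libraries. Levels were taken as log2(CPM + 1), where CPM is a gene's estimated count divided by its library's total and multiplied by 1000000, and D is the lower of both stage 1 values minus the highest of the 6 values of control, stage 4 and stage 5. Of 34027 genes in the table, 1144 had D above 0.3, and the members, described here, were chosen by these values as the 200 with the largest D. Stages 2 and 3 played no part in the choice, so their 4 libraries carry the results that the choice did not fix.

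All plants were tomato (Solanum lycopersicum) M82 seedlings that carried DR5::VENUSx3-NLS, a nuclear fluorescent reporter under a synthetic auxin-responsive promoter, and they were grown on agar plates with no treatment listed. Each of the 6 groups had 2 libraries. The control was a differentiation-zone piece of the primary root without lateral roots. At stage 1, DR5 marked a pair of cells, and at stage 2 the first periclinal division had taken place. The primordium was crossing the endodermis at stage 3, stood in mid-cortex at stage 4 and touched the epidermis, still unemerged, at stage 5. Stage was read from DR5 fluorescence, the age of the seedlings is not given in the sources used here, and the labels do not say how many plants went into a library or whether replicates came from separate cultures, so p-values measure the spread between libraries, which may be technical. The sections also held the root tissue around the primordium. In such bulk sections, fewer cells of a type and less RNA per cell cannot be told apart.

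Lateral roots of flowering plants arise inside the parent root, mostly from pericycle cells next to the vascular tissue that accumulate auxin, and these founder cells divide to form a primordium that pushes through endodermis, cortex and epidermis. New primordia usually form behind the root tip in sequence, so younger ones tend to lie nearer to the tip. The labels give no distance from the tip, and stage and position along the root cannot be told apart. The members carry locus tags (Solyc numbers). No table used here pairs these tags with gene names, so products and roles are not given, and the planned lists of pathway genes and cell type markers could not be made. The tissue named in the labels was therefore not checked against marker genes.

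Library totals ran from 1948144 to 6196272 counts, the stage 1 libraries being the deepest. Libraries came from a 3′ tag kit that reads about one site per transcript, so CPM values of different genes are compared without division by length. A count of 3, used as the detection floor, equals between 0.484 and 1.54 CPM, depending on library depth. Intervals below cover counting error only.

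The members made up 2.1% of all counts in stage 1 replicate 1 (95% Wilson interval 2.09 to 2.11) and 1.37% in replicate 2 (1.36 to 1.38). In the stage 2 libraries they made up 0.562% (0.556 to 0.568) and 0.467% (0.46 to 0.474). At stage 3 the shares were 0.131% (0.128 to 0.134) and 0.126% (0.123 to 0.129). The mean share thus fell 3.37-fold from stage 1 to stage 2, a step in which stage 1 had been chosen high, and 4-fold from stage 2 to stage 3, a step that the choice did not use. Stage 4 shares were 0.0967% (0.094 to 0.0994) and 0.0685% (0.0665 to 0.0707), and stage 5 shares were 0.0544% (0.0521 to 0.0567) and 0.0472% (0.0442 to 0.0503).

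The control libraries differed. Members made up 0.195% of counts in control replicate 1 (95% Wilson interval 0.19 to 0.199) and 0.0843% in replicate 2 (0.0808 to 0.0878), a ratio of 2.31. In log2(CPM + 1), 162 members were higher in control replicate 1 and 25 in replicate 2, with a median difference of 0.78, while the median over all tested genes was 0.09. Stage 1 replicate 1 was likewise above replicate 2 for 175 members, by a median of 0.65, against −0.01 over all tested genes. Of all tested genes, 56.1% were higher in replicate 1 in the control and 48.9% at stage 1. Without control replicate 1 the rule would choose 160 of the same 200 genes, and without stage 1 replicate 1 also 160. Within the compared stages the offset was smaller, with a median of 0.22 at stage 2 and 0.2 at stage 3.

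**Figure D1:**
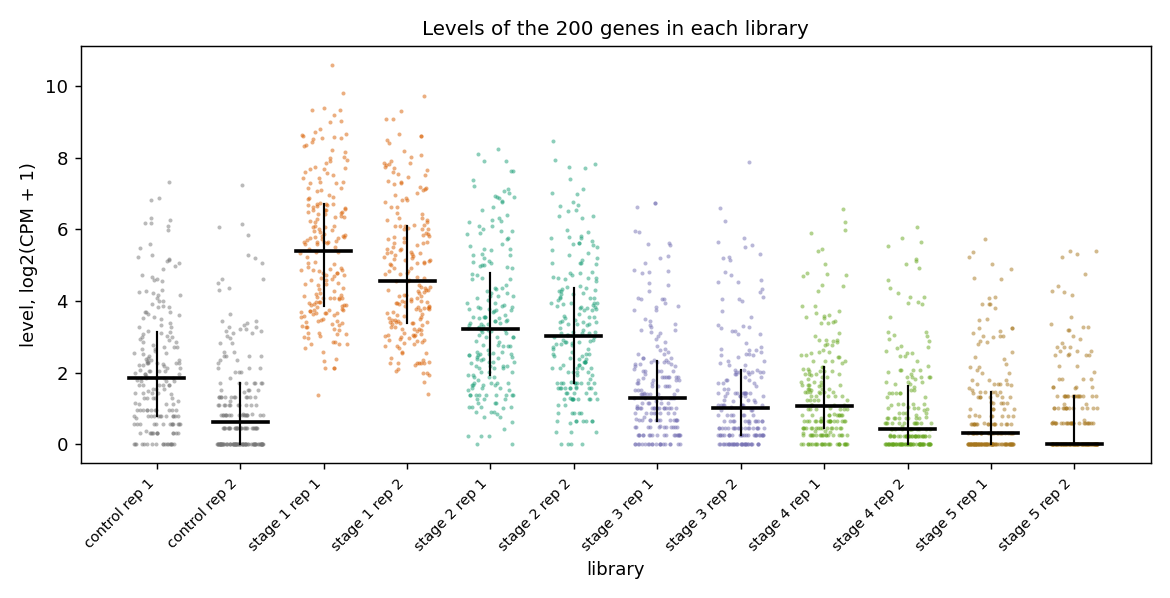
Level of each of the 200 members, as log2(CPM + 1), in each of the 12 libraries (1 point per gene). The horizontal bar is the median over members and the vertical line spans the 25th to 75th percentile. Stage 1 is high and the control, stage 4 and stage 5 are low by choice. The stage 2 libraries, left free, lie between, and the stage 3 medians lie between those of the control libraries, which differ.

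The name of early genes of stages 1 and 2 was examined on the free stages. By means of log2(CPM + 1), stage 1 was highest for 196 members and stage 2 for 4. Leaving stage 1 aside, the highest mean was at stage 2 for 189 members, at stage 3 for 8 and in the control for 3. Both stage 2 libraries lay above all 6 libraries of control, stage 4 and stage 5 for 171 members, whereas both stage 3 libraries did so for 8. These 6 libraries had been chosen low, so both comparisons partly follow from the choice and are a description. The share of all tested genes with such an order was not computed. The median of the members' mean levels was 1.56 CPM in the control. It was 33.8 CPM at stage 1, then 7.61 and 1.34 CPM for stages 2 and 3, and 0.937 and 0.322 CPM for stages 4 and 5. Nearly all members thus peaked at stage 1, where they had been chosen high, and the label fits stage 2 only as an intermediate level.

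To place the free stages on 1 scale, each mean of log2(CPM + 1) was expressed as a position between the control mean (0) and the stage 1 mean (1). At stage 2 the median position was 0.483 (25th to 75th percentile 0.354 to 0.608), and 173 members lay between 0.2 and 0.8. At stage 3 the median was −0.0189 (−0.113 to 0.0646), and 161 members lay between −0.2 and 0.2. The scale uses chosen libraries at both ends and is a description. Its 0 is the mean of 2 control libraries that differed, with 0.195% and 0.0843% of counts in members. The stage 3 shares of 0.131% and 0.126% lay between these, so a position near 0 does not match stage 3 to either control library. For the 944 genes with D above 0.3 that are not members, the medians were 0.575 at stage 2 and −0.0183 at stage 3.

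**Figure D2:**
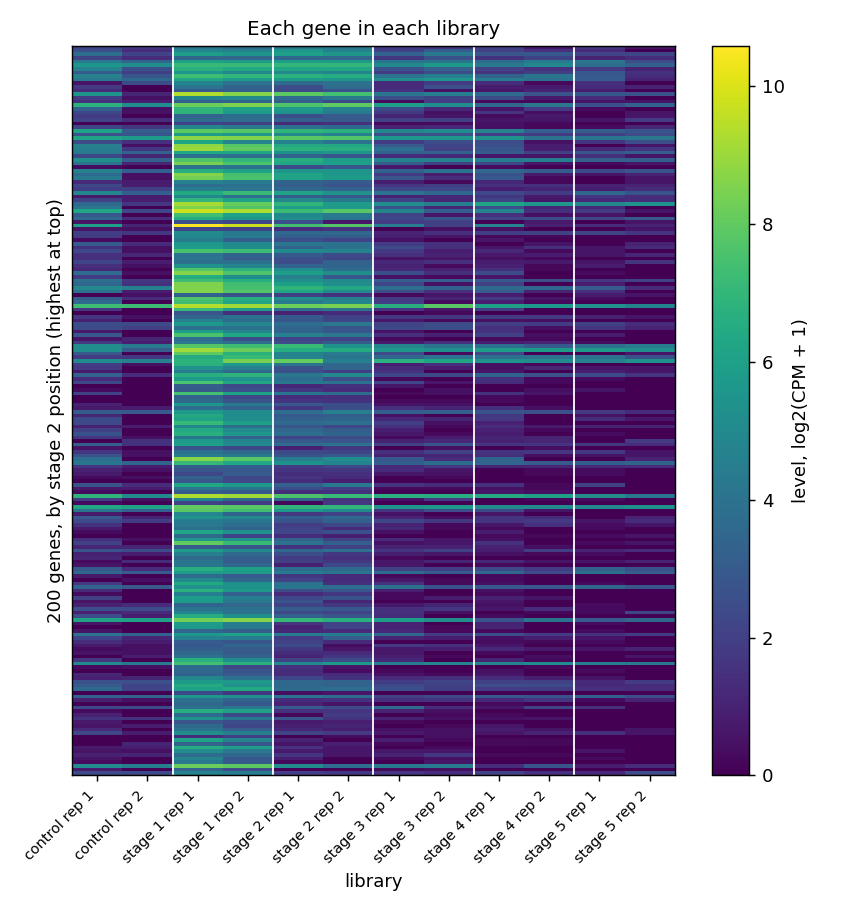
Level of the 200 members (1 row per gene, colour in log2(CPM + 1)) in the 12 libraries, ordered by position at stage 2 with the highest at the top. The stage 2 columns grade from levels like stage 1 at the top to levels like the control at the bottom, and the stage 3 columns are dark for most genes.

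The choice did not use stages 2 and 3, so the question was whether the members changed between them. In this step the primordium passed the endodermis. At stage 3, 73 of the 198 tested members were lower than at stage 2 and 0 were higher (edgeR quasi-likelihood test, adjusted p under 0.05 over all 18357 tested genes). The background for lower calls was 1.17% of tested genes and for higher calls 2.57%. The median log2 change was −2.5 over the tested members and 0.01 over all tested genes, and 192 of the 198 members had a change below 0, against 49.4% of all tested genes. The filter on low counts, the scaling and the spread drew on all 12 libraries, 8 of which were used in the choice, so the fit was not independent of it. Some of the 198 passed the filter through stage 1, where they had been chosen high, and the counts and median above include them. In a fit of only the 4 libraries of stages 2 and 3, with the filter run on these alone, 148 members were tested. Of these, 112 were called lower and 0 higher, 146 had a change below 0 and the median was −2.42, while 4.66% of all genes tested there were called lower. In the fit of 12 libraries, with the 10 members that had no count in either stage 3 library set to their bound against the floor, the median was −2.39. The called members fell by 1.36 to 6.39 on the log2 scale, although the largest sizes belong to genes near 0 at stage 3 and depend on the fit.

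These 73 genes were 36.9% of the tested members and 34% of the 215 genes called lower in the whole table. Counting all genes with D above 0.3, 160 of the 215 (74.4%) were included. For the 852 tested genes with D above 0.3 that were not members, the median log2 change was −0.75 and 87 were called lower (10.2%). No member was higher at an unadjusted p under 0.05 in edgeR, and DESeq2 also called 0 higher. In edgeR 153 tested members passed that unadjusted level, all of them lower, beside 3422 of all 18357 tested genes in either direction. In plain levels, both stage 2 libraries were above both stage 3 libraries for 181 of the 200 members and for 27.4% of tested genes. The reverse order held for 1 member and 28.7% of tested genes.

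Calls were more frequent among members with more counts at stage 2, which is also 1 side of the tested change. Of the 140 members with at least 10 counts in both stage 2 libraries, 71 were called, and of the other 60 members, 2 were. Leaving out a library of the compared stages left 1 library on that side. The median change of members then stayed between −2.69 and −2.37. Few or no genes were called lower in these fits, among members and over all tested genes. Single calls, of members or of other genes, thus rest on both libraries of each stage. Stage 1 replicate 1 enters only through the filter, the spread and the scaling. Without it the median change of members was −2.49, and fewer genes were called lower, among members and over all tested genes.

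**Figure D3:**
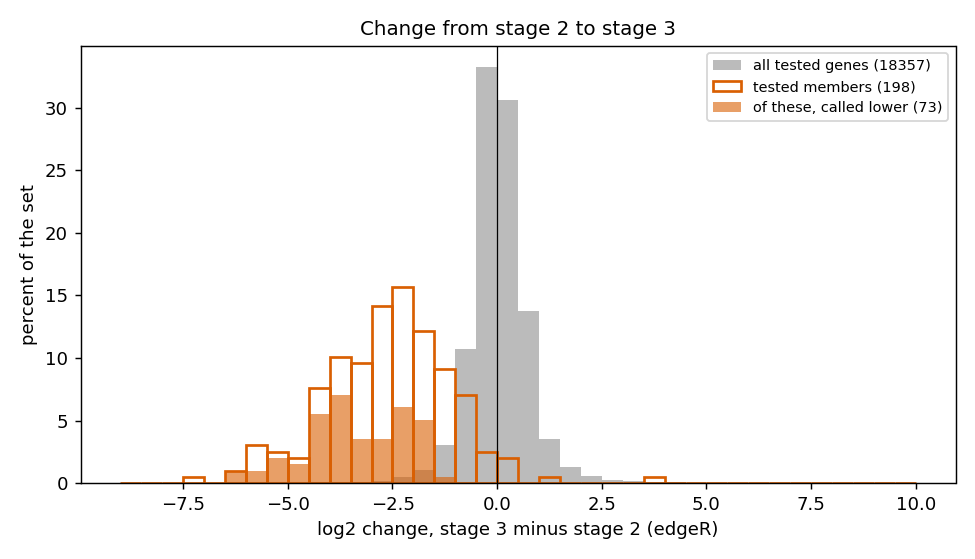
Distribution of the log2 change from stage 2 to stage 3 in bins of 0.5, as a percent of each set, for all 18357 tested genes (grey), the 198 tested members (orange outline) and the 73 members called lower (filled orange). Most members lie left of 0, with a median of −2.5, and the grey distribution is centred on 0.01.

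The members with the smallest adjusted p are given first. Solyc09g075870 had 5.54 and 6.06 CPM in the control, 60.5 and 49.3 at stage 1, 31.1 and 24.2 at stage 2, 5.17 and 5.17 in stage 3, 2.91 and 2.71 in stage 4, and 2.98 and 4.62 at stage 5. Stage 2 stood well clear of stage 3, and stage 3 was just below the control. Its log2 change from stage 2 to stage 3 was −2.41 ± 0.27 (SE; adjusted p = 0.00231, edgeR).

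Solyc08g079250 had a higher base level, with 78 and 70.1 CPM in the control, 260 and 230 at stage 1, 121 and 125 in stage 2, and 46.5 and 48.7 at stage 3. Its later values were 31.6 and 32 CPM at stage 4 and 31.5 and 38.5 at stage 5. Stage 3 was below the control in both libraries. The fall from stage 2 to stage 3 was the smallest among called members, at −1.36 ± 0.17 (SE; adjusted p = 0.0055, edgeR).

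Solyc03g083870, a member without fractional counts, went from 30.8 and 23.5 CPM in the control to 371 and 183 at stage 1 and 116 and 82.5 at stage 2. It then stood at 13.2 and 8.82 CPM at stage 3, 11.8 and 10.9 in stage 4 and 7.19 and 1.54 at stage 5. The stage 3 libraries lay below both control libraries, and the log2 change from stage 2 was −3.16 ± 0.44 (SE; adjusted p = 0.00777, edgeR).

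Solyc12g014010 was among the more abundant called members. It had 71.2 and 56.8 CPM in the control, 416 and 387 at stage 1, 238 and 208 at stage 2, 48.4 and 46.4 at stage 3, 40.9 and 14.8 in stage 4, and 16.4 and 18 in stage 5. Values of stages 2 and 3 did not overlap, and the log2 change was −2.22 ± 0.35 (SE; adjusted p = 0.0122, edgeR). The others of the 10 smallest adjusted p-values were Solyc10g054840, Solyc01g097690, Solyc02g071070, Solyc06g048790, Solyc12g098210 and Solyc11g067330, whose log2 changes ran from −4.15 to −2.21.

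The members with the largest D were low in the control and at stages 4 and 5 by choice. They were low at stage 3 as well, and some also at stage 2. Solyc07g049240, first by D (5.79), had 95.9 and 67.8 CPM at stage 1, but only 1.86 and 2.04 at stage 2 and 1.02 and 0.386 at stage 3. In the control it had 0.241 and 0 CPM, and no count was found in the 4 libraries of stages 4 and 5. Its fall to stage 3 did not pass the threshold (log2 change −1.37 ± 0.61 SE, adjusted p = 0.264, edgeR).

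Solyc01g005880, next by D, kept more RNA at stage 2. It had 207 and 108 CPM at stage 1, 33.4 and 12.8 in stage 2 and 1.23 and 0.956 at stage 3. The control had 1.3 and 0 CPM, stage 4 had 1.7 and 0.17, and stage 5 had none. Both libraries of stage 2 were above both of stage 3, and the change was called (log2 change −4.38 ± 0.75 SE, adjusted p = 0.0186, edgeR). The pooled counts, 233 at stage 2 and 11 at stage 3, gave a ratio of 23.2 (95% exact interval 12.7 to 47.1).

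Solyc01g097680 and Solyc01g097690, at ranks 3 and 5 by D, have neighbouring tags. Solyc01g097680 had 254 and 144 CPM at stage 1, 14.3 and 8.18 in stage 2 and 0.407 and 0.573 at stage 3, and Solyc01g097690 had 182 and 152, 32.6 and 25.3, and 2.48 and 0.767 CPM. Both were called lower at stage 3, with log2 changes of −4.44 ± 0.93 and −4.15 ± 0.58 (SE; adjusted p = 0.0272 and 0.0079, edgeR). With DESeq2 the call of Solyc01g097680 was lost (adjusted p = 0.0847; over all alternatives 5.07e-18 to 0.231) at a similar log2 change of −4.52. Among the 10 largest D, 5 were called lower: these 3 with Solyc12g100100 and Solyc12g100090. Solyc12g100090 had 137 counts over the stage 2 libraries and 3 over the stage 3 libraries, a ratio of 50 (95% exact interval 16.8 to 246). The members of this set that were not called besides Solyc07g049240 were Solyc12g005787, Solyc08g075830, Solyc02g030220 and Solyc06g064960, with adjusted p between 0.0566 and 0.927 (edgeR). DESeq2 called Solyc06g064960 lower (adjusted p = 0.00874; over all alternatives 9.96e-06 to 0.479). All 10 had fractional counts in at least 1 library. Such counts may come from reads divided among similar genes, which was not tested, and the level of each single gene is uncertain to that extent.

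The most abundant members were not the most clearly changed ones. Solyc12g098260 reached 1537 and 843 CPM at stage 1, the highest mean of any member (1190 CPM), and had 165 and 214 at stage 2. Its stage 3 values were 21.6 and 3.07 CPM, stage 4 had 25.1 and 0.943, stage 5 had 1.49 and 1.03, and the control had 62.4 and 1.14. The libraries of stages 2 and 3 did not overlap, but the spread within the control, stage 3 and stage 4 was wide, and the change missed the threshold (log2 change −3.92 ± 1.22 SE, adjusted p = 0.0963, edgeR). Its neighbour Solyc12g098250 showed the same wide spread, with 75.3 and 3.79 CPM in the control and 27.3 and 8.05 at stage 3, beside 885 and 625 at stage 1 and 148 and 226 at stage 2 (adjusted p = 0.0961, edgeR).

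Solyc10g008120 had 667 and 537 CPM at stage 1, 304 and 354 in stage 2 and 98.1 and 236 at stage 3, and its control values of 158 and 151 were high for a member. Solyc01g090120 had 637 and 542 CPM at stage 1, 197 and 139 in stage 2 and 105 and 96.6 at stage 3. Neither change to stage 3 passed the threshold (adjusted p = 0.13 and 0.425, edgeR). Solyc04g150160 did pass it: it had 647 and 390 CPM at stage 1, 239 and 170 in stage 2 and 15.7 and 22.2 at stage 3 (log2 change −3.42 ± 0.76 SE, adjusted p = 0.0327, edgeR). The 5 most abundant members held 21.1% of all member CPM at stage 1, where member means ran from 2.3 to 1190 CPM.

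At stage 2 the members fell along a range rather than at 1 level. In 11 members the stage 2 position was above 0.8, so that stage 2 was near or above stage 1, and 8 of these were called lower at stage 3. The stage 2 level sets the position and is also 1 side of the tested change, so calls by position are a description. Their median level was 50.6 CPM at stage 1, 50.5 at stage 2, 7 at stage 3 and 8.32 in the control. Solyc02g071970 had 17 and 12 CPM at stage 1 and 17.8 and 17.8 at stage 2, and was the 1 member with both stage 2 libraries above both stage 1 libraries (background 23.6% of tested genes). It dropped to 2.48 and 1.92 CPM at stage 3, close to the control values of 3.61 and 2.27 (log2 change −2.99 ± 0.53 SE, adjusted p = 0.0186, edgeR).

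Solyc07g054720 had 26.8 and 23.9 CPM at stage 1 and 45 and 24.2 at stage 2. It was among the 4 members whose highest mean was at stage 2, and it fell to 3.1 and 7.47 CPM at stage 3 (log2 change −2.7 ± 0.51 SE, adjusted p = 0.0214, edgeR). Solyc02g070090 followed the same course, with 57.9 and 43.2 CPM at stage 1, 61.5 and 47.6 in stage 2 and 9.1 and 18 at stage 3 (adjusted p = 0.0248, edgeR). Solyc03g078490 had 10.3 and 10.3, 10.7 and 10.1, and 2.28 and 5.17 CPM at these stages, and its change missed the threshold (adjusted p = 0.0823, edgeR).

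At the other end, 16 members had a stage 2 position below 0.2, and 0 of these were called lower at stage 3; 10 of them had fractional counts. Their median level was 14.3 CPM at stage 1, 0.893 at stage 2, 0.347 at stage 3 and 0.594 in the control. Most were thus at or near the detection floor from stage 2 on, with little room for a lower call at stage 3. Solyc07g047740 was the abundant exception, with 285 and 241 CPM at stage 1 and 33.7 and 21.6 in the control. It had 33.3 and 13.2 CPM at stage 2, 18.4 and 19.2 at stage 3, 1.55 and 5.76 in stage 4 and 0.744 and 1.54 at stage 5. The stage 3 values lay between the 2 stage 2 values, and the change between the stages was −0.34 ± 0.43 (log2, SE; adjusted p = 0.738, edgeR). Solyc10g055190 had 24 and 20.9 CPM at stage 1 but 2.84 and 2.25 at stage 2, below its control values of 4.09 and 4.16.

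A stage 3 position above 0.5 was found for 3 members. Solyc02g076880, which ranked 199 by D, had 18.1 and 11.4 CPM in the control, 77.8 and 55.3 at stage 1, 53.2 and 47.9 in stage 2 and 37 and 44.3 at stage 3. It then stood at 20.5 and 14.2 CPM at stage 4 and 7.19 and 1.03 at stage 5, a slower course than that of most members. Solyc08g078930 had 272 CPM in stage 2 replicate 1 and 22.5 in replicate 2, with 106 and 74.5 at stage 3, so its stage 2 level was not settled by these libraries. Solyc02g090600 was a weak gene, at 5 and 3.82 CPM at stage 1, 4.8 and 0.563 in stage 2 and 2.69 and 3.07 at stage 3. None of the 3 changes from stage 2 to stage 3 passed the threshold (adjusted p = 0.72, 0.68 and 0.997, edgeR).

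At the low end of the stage 3 scale, Solyc03g122320 had 4.81 and 4.54 CPM in the control, 16 and 15.1 at stage 1, 7.82 and 6.48 in stage 2 and 1.65 and 2.11 at stage 3 (log2 change from stage 2 −1.91 ± 0.44 SE, adjusted p = 0.036, edgeR). Solyc02g092870 had 8.67 and 9.47, 49.1 and 39.5, 15.5 and 12.4, and 3.1 and 4.02 CPM in the same groups (log2 change −1.95 ± 0.33 SE, adjusted p = 0.0149, edgeR). For these genes stage 3 was below the control in both libraries. Solyc01g005850 had 23 counts over the stage 2 libraries and 0 over those of stage 3; its stage 2 mean was at least 3.8-fold higher than the floor of 3 counts per stage 3 library.

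**Figure D4:**
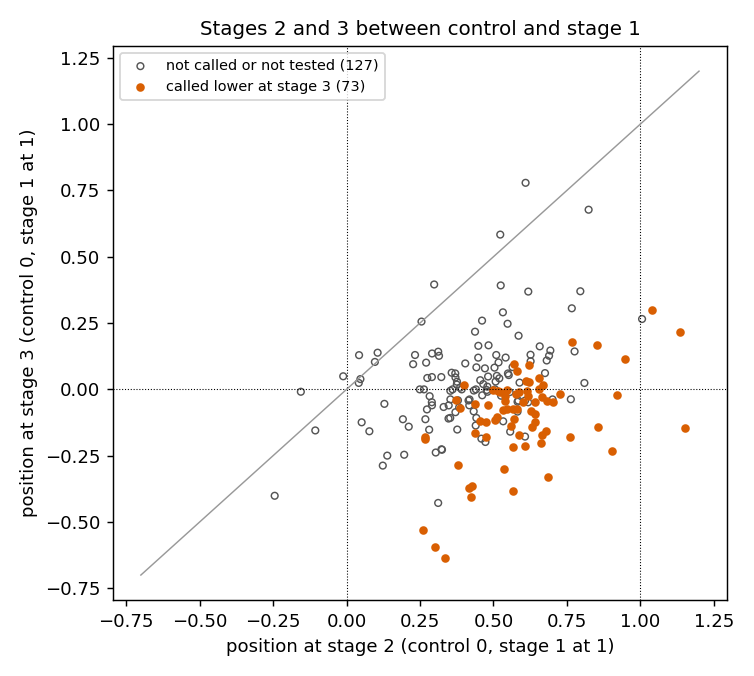
Position of each member at stage 2 (horizontal) and stage 3 (vertical) on a scale where the control mean is 0 and the stage 1 mean is 1, in log2(CPM + 1). Filled points are the 73 members called lower at stage 3, open points the 127 others, and the diagonal marks equal positions. Nearly all members lie below the diagonal, with medians of 0.483 at stage 2 and −0.0189 at stage 3.

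The contrasts that the choice used give the following counts as a description. For stage 1 against control, 194 of 198 tested members were called higher (background 9.94%). For stage 2 against control, which shares the chosen control libraries, 55 were called higher (5.25%), and for stage 3 against control 3 were called higher (13%) and 3 lower (3.26%). For stage 2 against stage 1, 25 were called lower (0.158%), and these were 25 of the 29 genes called lower in that step. Stage 4 against control gave 22 lower (13.5%) and 3 higher (19.4%) members, and stage 5 against control gave 42 lower (21.8%) and 2 higher (24.4%).

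The chromosomes of the members were read from their tags and are given without a test. In these tags the number after Solyc names the chromosome, and the digits after the letter g follow the order along it for most genes. Chromosome 12 held 38 members (19%), beside 6.5% of tested genes and 5.51% of the 944 genes with smaller D. Chromosome 1 held 22 members (11%, against 12.7% of tested genes), and the others of chromosomes 2 to 11 between 8 and 19 each. None of the 175 tested genes whose tags carry the number 0 was a member. Of the 38 members on chromosome 12, 24 had fractional counts. Among the 123 members without fractional counts, 14 (11.4%) were on chromosome 12, beside 6.2% of tested genes without fractional counts.

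Some members had nearby tags. When tags on a chromosome were joined if their numbers differed by at most 50, 61 members (30.5%) fell into 22 runs, and 26 of the 61 were on chromosome 12. The share of other genes that fall into such runs was not computed, so whether 30.5% is unusual is not known. The longest run reached from Solyc12g049040 to Solyc12g049180 and held 8 members. These were the 8 tested tags of that stretch, which has 17 tags in the table. Their stage 1 means ran from 8.91 to 135 CPM, their stage 2 means from 0.776 to 16.4 and their stage 3 means from 0 to 2.15, and 3 were called lower at stage 3. All 8 had fractional counts.

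The next run on chromosome 12, from Solyc12g098210 to Solyc12g098300, held 7 members among 9 tested tags. It contained the most abundant member and had stage 1 means from 70.9 to 1190 CPM. Its stage 2 means lay between 4.03 and 189 CPM and its stage 3 means between 0.621 and 17.7 CPM. In this run 5 members had fractional counts, while Solyc12g098210 had none: it stood at 79.6 and 75.6 CPM at stage 1, 39.1 and 46.8 in stage 2 and 9.31 and 9.01 at stage 3 (log2 change −2.21 ± 0.34 SE, adjusted p = 0.0119, edgeR).

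A further run, from Solyc12g100080 to Solyc12g100110, held 4 members, which were all 4 tags of the stretch. Stage 1 means ran from 56.8 to 296 CPM, stage 2 means from 4.37 to 47.7 and stage 3 means from 0.207 to 3.24, and 3 of the 4 were called lower. On chromosome 1, the run from Solyc01g097680 to Solyc01g097720 held 3 members, all called lower, with stage 1 means of 167 to 296 CPM. Fractional counts were found in 37 of the 61 members inside runs and in 40 of the 139 outside them. Of the members called lower, 28 lay in runs and 45 outside.

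**Figure D5:**
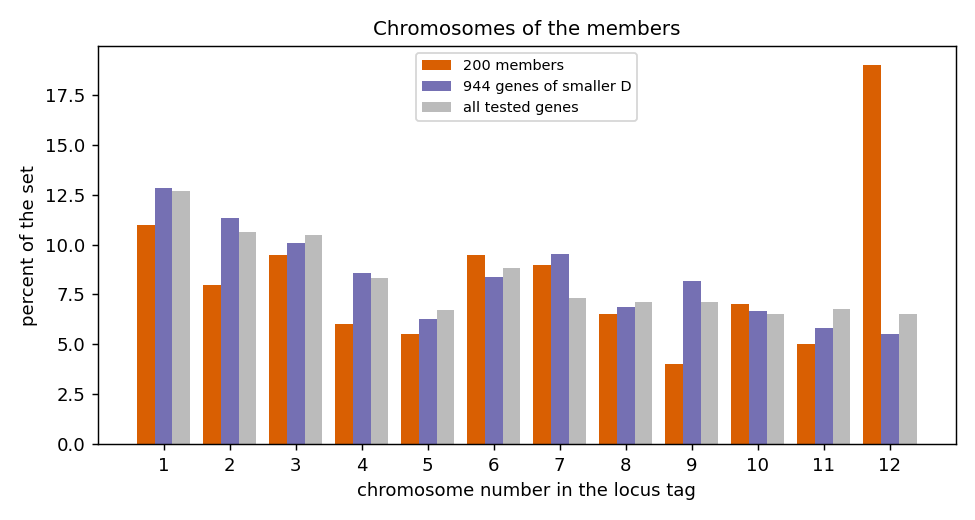
Percent of the 200 members (orange), of the 944 other genes with D above 0.3 (purple) and of all tested genes (grey) on each chromosome, read from the locus tag. Chromosome 12 holds 19% of the members and 6.5% of tested genes, and chromosome 9 holds 4% of the members and 7.14% of tested genes.

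In all, 77 members (38.5%) had fractional counts in at least 1 library, against 16.7% of tested genes. The change from stage 2 to stage 3 was found in both kinds of member. Of the 121 tested members without fractional counts, 43 were called lower (35.5%) with a median log2 change of −2.29, and of the 77 with such counts, 30 were called lower (39%) with a median of −2.74. When all genes with fractional counts were left out before fitting, 47 of 121 members were called lower, 43 of them also called in the full fit.

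The relative order of the members was shared between libraries. Over the 200 members, the Spearman correlation of levels was 0.955 between the stage 1 libraries, 0.924 between those of stage 2 and 0.817 between those of stage 3. Control replicate 1 correlated with the stage 2 libraries at 0.89 and 0.894, and with control replicate 2 at 0.657. Control replicate 2 correlated with the stage 2 libraries at 0.595 and 0.585. It is shallower, with 130 members at or under the floor against 57 in replicate 1. Members also made up less of its counts (0.0843% against 0.195% in replicate 1). The cause of its lower correlations was not tested. The correlations describe the libraries across genes, which are not independent replicates.

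The list has no sharp edge. Just inside it, at ranks 198 to 200, Solyc12g049365, Solyc02g076880 and Solyc05g055860 had D of 1.39, 1.39 and 1.39, and just outside Solyc02g083285, Solyc03g020030 and Solyc09g011980 had 1.38, 1.38 and 1.37. Solyc05g055860 was at 1.61 and 2.99 CPM at stage 1 and had no count in the 6 low libraries. It was 1 of 2 members, with Solyc05g024340, whose counts were too low to be tested.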

How the data were processed

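RNA from 12 libraries was read as estimated counts per gene, which the authors deposited as 1 table of 34027 genes; 5.64% of the values were not whole. Salmon 1.3.0 and DESeq2 are named, without a role, per the submitters' processing notes. Per the labels' protocols, the library kit was Lexogen's 3′ QuantSeq. Genome build, annotation and strand setting are not given in the sources used here. Reads of similar genes may have been divided among them, and without molecular identifiers PCR copies cannot be told from separate molecules.

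Columns were matched to samples by the description in the labels. CPM used column totals (1948144 to 6196272 counts). Counts were rounded, filtered with filterByExpr (18357 genes left), scaled by TMM and tested with edgeR 4.0.16 in R 4.3.3 (limma 3.58.1) by the quasi-likelihood test in a model of stage over all 12 libraries, with Benjamini-Hochberg adjustment over all tested genes and calls at an adjusted p under 0.05. SE is the log2 change divided by the square root of F. Two-sided tests were used. The tested comparison was stage 3 against stage 2; DESeq2 1.42.0 was an alternative. In simulated data for that comparison with 17962 genes, 28.4% of genes changed by 1 log2 unit, 85.1% of those changed by 2 and 95.5% of those changed by 4 were recovered, with 5 false calls. In simulated data without change, 0 of 17922 genes were called. Changed genes were drawn from those with a mean above 2 CPM over all libraries, and the spread followed the trend over genes. The recovery rates may therefore not hold for weaker or more scattered members.

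The replicate number was not taken as a pairing. The members and the lists were chosen with earlier results of these data known. Members were named by rank: the 10 largest D, the 10 smallest adjusted p among lower calls, the 5 highest stage 1 means, the 5 highest and 5 lowest positions at stages 2 and 3, and 3 genes on each side of the list's edge. Solyc05g024340 was named outside this rule, after its values were seen, because it was not tested. The lists of pathway genes, cell type markers and promoter motifs were not made, since the annotation and sequences they need were not used here. The limit of 50 on tag numbers was also chosen after the data were seen.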

Additional observations from a re-analysis of the deposited data

Results flagged for a closer look

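The effects of stage 2 and stage 3 against the shared control differed for 73 members, all lower at stage 3 by the direct test of stage 3 against stage 2 (edgeR, adjusted p under 0.05). This is the comparison that the choice of members left free. It is listed here because the effect differs between stages, and the background for lower calls was 1.17% of tested genes.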

How the results depend on the processing

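In 0 of the alternatives was a member called higher at stage 3 than at stage 2 (edgeR or DESeq2). The number called lower (73) was 73 with DESeq2 size factors, 76 with DESeq2 (59 of them shared), 94 with the replicate block (72 shared), 51 of 181 after thinning, 145 of 200 without a filter, 112 of 148 with only the 4 libraries compared, 9 of 19 with 10 counts in every library and 47 of 121 without genes with fractional counts, where the number after "of" is the number of members tested. Leaving out 1 library gave 0 to 103. Without stage 2 replicate 1, the median log2 change of members was −2.39. The median log2 change was −2.59 with DESeq2, −1.56 with 10 counts in every library, −2.42 with the 4 libraries, −2.41 after thinning, −2.3 without fractional counts, and −2.69 to −2.37 without 1 library. Calls over all genes (687) became 1758 without a filter, 1836 with the 4 libraries, 456 after thinning, 790 with the replicate block, 963 with DESeq2, and 0 to 1183 without 1 library. Over all tested genes, the share called lower (1.17%) was 3.02% without a filter, 4.66% with the 4 libraries and 0.975% after thinning. It was 1.08% with 10 counts in every library, 1.96% with DESeq2, 1.39% with the replicate block and 1.04% without fractional counts. DESeq2 size factors gave 1.25%. Of the genes called in either direction, 68.7% were called higher in the main fit. That percentage was 80.6% with 10 counts in every library, 55.6% without a filter and 56.8% with the 4 libraries. The cause of these shifts was not tested. Replicate differences correlated at 0.114 between stages 2 and 3 and over 0.1 in 5 of 15 pairs of groups (mean 0.0522, range −0.091 to 0.249), and the labels name nothing shared by a number, so the replicate block was not the main model.

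Over all members, DESeq2 kept 59 of the 73 lower calls, the replicate block 72 and thinning 49. The changes below are those of named members only. Besides Solyc01g097680 and Solyc06g064960, DESeq2 added the call of Solyc05g052340. The replicate block added Solyc06g064960, Solyc02g030220, Solyc12g098260 and Solyc12g098250. Thinning ended the calls of Solyc12g100100 and Solyc01g005850.

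Among named members with a test, the sign changed for weak or scattered genes, none of them among the 73 called. Solyc02g090600 had −0.013 with DESeq2 size factors, −0.016 with the 4 libraries and −0.27 after thinning, and −0.72 to 2.33 without 1 library. After thinning Solyc08g075830 was at 0.54, Solyc10g055190 at 0.16, Solyc12g005783 at 3.15 and Solyc08g005620 at 0.13. Without 1 library, the ranges were −1.61 to 4.24 for Solyc08g075830, −0.82 to 0.54 for Solyc07g047740, −1.49 to 3.55 for Solyc12g005783, −1.58 to 2.04 for Solyc08g078930, −1.004 to 2.82 for Solyc08g005620 and −2.27 to 3.54 for Solyc07g052540. The rule chose 161 to 192 of the same genes under other scalings, pseudocounts, means or thinning, and 160 to 199 without 1 library.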

Other observations

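The genes next in order, 944 with D above 0.3 but outside the 200, shared the course in a weaker form. Of the 852 that were tested, 804 (94.4%) had a log2 change below 0 from stage 2 to stage 3, with a median of −0.75. In edgeR 0 of them were called higher. An unadjusted p under 0.05 (edgeR) in either direction was found for 385 of these 852 and for 3422 of all 18357 tested genes. Solyc02g083285 had 8.88 and 3.49 CPM at stage 1, 2.13 and 0.845 for stage 2 and 2.28 and 2.87 for stage 3, so not all of these genes fell. Solyc09g011980 had 19.7 and 19.8 CPM at stage 1, 14.2 and 10.1 for stage 2 and 6.21 and 5.37 for stage 3, and it was lower at stages 4 and 5 (at most 2.2 CPM) than in the control (6.98 and 5.3 CPM).

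Replicate 1 was above replicate 2 in 137 members at stage 4 and below it in 47, and in 76 against 60 members at stage 5, where many members had no count. At stage 2 the numbers were 127 and 72, and at stage 3 they were 118 and 72. Over all tested genes, replicate 1 was higher in 46.7% of genes at stage 2 and 46.2% at stage 3. A model that also held the number as a replicate block called 94 members lower from stage 2 to stage 3, against 73 without it, with a median log2 change of −2.47 (edgeR). The shares of all tested genes called lower were 1.39% with the block and 1.17% without it.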
